A study of Rattus norvegicus with 2 samples.

Results

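The renin-angiotensin system and its mineralocorticoid arm were examined through 10 genes chosen by name: Agt, Ace, Agtr1a, Agtr2, Agtrap, Atp6ap2, Enpep, Lnpep, Nr3c2 and Hsd11b2. They were looked up among the 13706 genes of the protein-coding tables of both groups. Of the 10 genes, 9 had a row in each table, and Agtr2 had a row in neither. The samples were myocardium of spontaneously hypertensive rats, an inbred strain with high blood pressure and cardiac hypertrophy, so the strain is shared by both groups and no normotensive animals were among them. The treated group received KXH, the high dose (9.6 g/kg into the stomach) of the herbal preparation named Jiangya Kangxian formula in the series title, and the control group received distilled water. Both were given for 12 weeks. There was 1 total RNA library per group, and the labels give neither the animals' age nor whether a library held 1 animal or a pool.

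In this hormone system, angiotensinogen is cleaved to an inactive peptide, which angiotensin-converting enzyme turns into angiotensin II. Angiotensin II constricts vessels and promotes cardiac growth and fibrosis through the AT1 receptor, and aminopeptidases remove it. It also drives adrenal release of aldosterone, which acts through the mineralocorticoid receptor. The heart takes up angiotensinogen from the circulation and makes converting enzyme and receptors locally.

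The tables summed to 14.1 M reads for KXH and 15.1 M for water (M, 1000000), of which 7336 and 8341 reads belonged to the 9 listed genes. Levels are given as RPKM, reads per kilobase of gene length per 1000000 reads, and a ratio is the KXH level over the water level. Because each group is a single library, nothing below could be compared with the spread between animals, and the treatments were not tested. The 95% intervals are exact and cover counting error only, so "higher" and "lower" describe these libraries. Cardiomyocyte markers were at a summed level of 38219 RPKM in KXH and 35732 in water, whereas 6 kidney tubule and adrenal markers summed to 0.539 and 0.702 RPKM, with Umod, Cyp11b1 and Cyp11b2 having no row. Endothelial, smooth muscle and erythroid marker sums were lower in KXH, at 0.880, 0.881 and 0.680 of the water level, and the fibroblast sum was higher, at 1.12 times. The sum of 4 atrial markers was 1.56 times the water level. Nearly all of it was Nppa (9778 reads in KXH and 6717 in water, ratio 1.56). The sum therefore follows this 1 gene and is not by itself a measure of atrial tissue. Myl4 (1.69) and Sln (1.61) were higher too, whereas Myl7 had a ratio of 0.665 (0.306 to 1.39), and the part of atrial tissue in the members' ratios was not tested.

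Ace was the member with the clearest difference, 1.42-fold lower in the KXH library, and the angiotensin-degrading aminopeptidase Enpep was 1.10-fold lower. For the mineralocorticoid receptor Nr3c2 and the aminopeptidase Lnpep the libraries were 1.03-fold and 1.04-fold apart, with intervals that included 1. Agtr1a, Agt and Hsd11b2 rested on too few reads for a difference to be resolved. Agtrap, an inhibitor of the AT1 receptor, and Hsd11b2 were the only listed members with a higher value in KXH, and both intervals included 1.

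Of the 9 listed genes, 7 passed a minimum mean of 1 RPKM, while Agt and Hsd11b2 did not. A gene was called lower when its KXH level was at least 20% below the water level (a ratio of at most 0.8), and called higher at 25% above it, the same fold in the other direction. Among the 7, Ace and Agtr1a were called lower and none was called higher. Over the 10466 genes that passed the same minimum with reads in both libraries, 8.98% were called lower and 5.32% higher. The Agtr1a ratio lies just past the limit, and only Ace was past it when 0.1 or 1 was added to each RPKM or when the libraries were scaled by a trimmed mean or on the median gene. Agtr1a and Ace belong to the 5185 genes with 100 to under 1000 reads over both libraries, of which 12.1% were called lower. The counting interval lay below 1 for Ace and Enpep, a state shared by 16.3% of all genes past the minimum, and for Ace alone once the trend with gene length was removed. It lay above 1 for no member and 11.2% of genes. In all, 6 of the 7 were below the water level, as were 55% of all genes, and their median log2 ratio was -0.14 beside -0.02 for all genes.

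**Figure D1:**
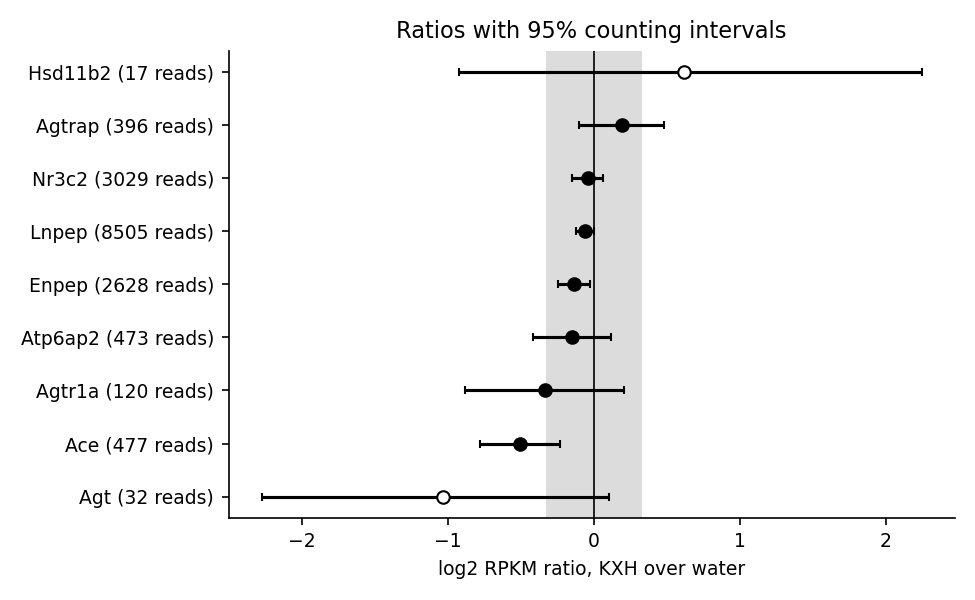
Log2 ratio of the KXH over the water level (horizontal axis) for the 9 listed genes, with 95% counting intervals and the reads of both libraries in brackets. Open circles mark genes under a mean of 1 RPKM and the grey band spans ratios within the limits for calling a gene lower or higher. The intervals of Ace and Enpep lie to the left of 0, and those of Agt and Hsd11b2 are the widest.

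The levels of the members spanned a wide range, and their order was nearly the same in both libraries. Lnpep stood highest, at 89.5 RPKM in KXH and 93.2 in water, above 94.1% and 94.5% of the genes listed in the respective library. Enpep, Nr3c2, Atp6ap2, Agtrap, Ace and Agtr1a followed in this order. Each step between neighbours exceeded counting error in both libraries, except that from Agtrap to Ace. Agtrap was 1.71 times the level of Ace in KXH (1.40 to 2.10), but 1.06 times in water (0.877 to 1.28). The lowest values belonged to Agt and Hsd11b2, whose levels per length were not separable in KXH (Agt 0.963 times Hsd11b2, 0.360 to 2.58). In water Agt was 3.03 times Hsd11b2 (1.2 to 8.39).

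**Figure D2:**
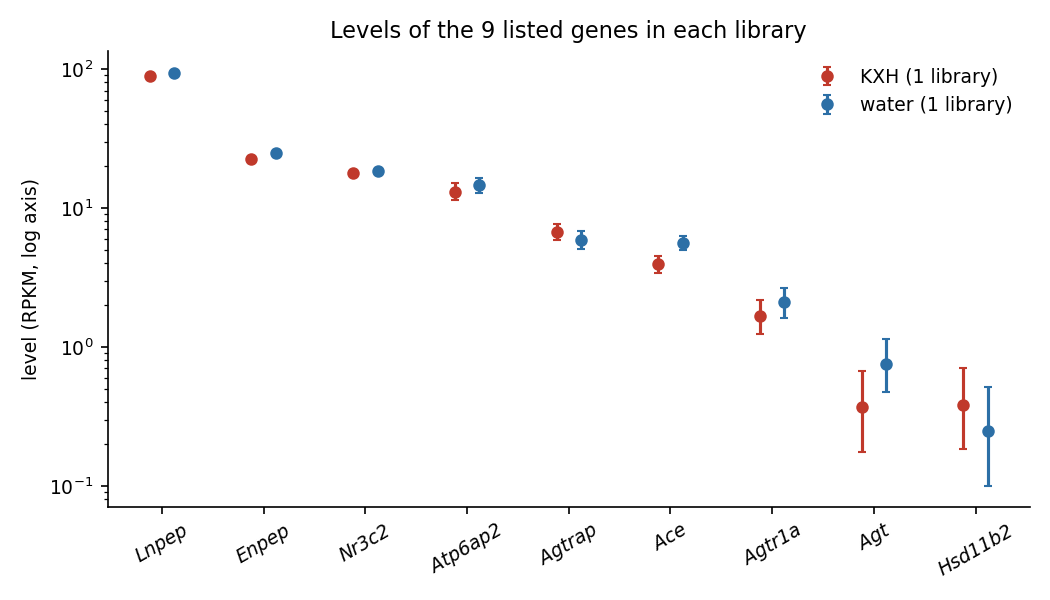
Level of each listed gene in RPKM on a log axis in the KXH library (red) and the water library (blue), with 95% exact Poisson intervals that cover counting error only. The genes descend from Lnpep, at 89.5 and 93.2 RPKM, to Hsd11b2, at 0.382 and 0.249 RPKM, and the intervals of Ace do not overlap between the libraries.

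Among the genes that make angiotensin II, the substrate gene Agt was scarcely read in these hearts. It had 10 reads in KXH and 22 in water, or 0.368 RPKM (0.176 to 0.676) and 0.753 RPKM (0.472 to 1.14). The listed coverage of its length was 53.9% and 61.9%. The ratio of 0.488 (0.206 to 1.07) was not separable from 1 with so few reads, and 13.5% of the 3058 genes with under 100 reads had a ratio at least as low. With 1 added to each RPKM its log2 ratio of -1.03 became -0.36. Agt is made chiefly by liver. Of 5 hepatocyte markers, all 5 had a row and 4 stood under 1 RPKM in KXH. Their sum was 25.4 RPKM in KXH and 30.3 in water, nearly all of it Ttr, and albumin (Alb) had 11 and 41 reads. The part of RNA from other tissue in the Agt ratio was not tested.

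Ace encodes the converting enzyme, an ectoenzyme of the endothelial surface and the target of a widely used class of blood pressure drugs. It had 189 reads in KXH and 288 in water, or 3.93 RPKM (3.39 to 4.53) and 5.57 RPKM (4.95 to 6.25). The KXH level was thus below the water level by more than counting error, 1.42-fold (1.18 to 1.71). Of the 5185 genes with 100 to under 1000 reads, 4.15% had a ratio at least as low. Reads covered 99.9% of the listed length in KXH and 98.7% in water.

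Endothelial markers were lower beside Ace. Of 16 markers, 14 passed 1 RPKM and all 14 were lower in KXH, with ratios from 0.751 for Sox18 to 0.985 for Esam, against 0.705 for Ace. Ptprb had no row, and Robo4 was under 1 RPKM. The summed endothelial level was 619 RPKM in KXH and 704 in water, and Ace amounted to 0.634% and 0.791% of that sum. In RNA of whole tissue, fewer cells of a type and less RNA per cell cannot be told apart, and the part of endothelial content in the Ace ratio was not tested.

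The chymase gene Cma1, a mast cell protease listed here among genes for forming or degrading angiotensins, had 17 and 14 reads (ratio 1.30, 0.605 to 2.86). Of 7 mast cell markers, 4 passed 1 RPKM and 3 of these were higher in KXH. Tpsab1 was at a ratio of 1.72 (0.865 to 3.52), Cpa3 at 1.54 (0.878 to 2.75) and Tpsb2 at 1.07 (0.691 to 1.67). Kit, at 0.830 (0.718 to 0.958), was lower. The sum of the 7 markers was 12.6 RPKM in KXH and 12.5 in water, of which Kit gave 6.33 and 7.63. The part of mast cell content in the Cma1 ratio was not tested.

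The aminopeptidases that shorten angiotensin II and its products included the member with the most reads, Lnpep. Enpep encodes aminopeptidase A, which removes the first residue of angiotensin II and in heart is found on pericytes. With 1205 reads in KXH and 1423 in water, it stood at 22.4 RPKM (21.2 to 23.7) and 24.7 RPKM (23.4 to 26.0). The KXH level was 1.10-fold lower (1.02 to 1.19), a small difference. Removing the trend of ratios with gene length moved the ratio to 0.928 (0.859 to 1.00), and the unrounded upper end then lies just above 1. A ratio at least as low was found in 15.0% of the 4619 genes with 1000 reads or more.

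Smooth muscle and pericyte markers were lower beside Enpep. Of 14 markers, 13 passed 1 RPKM and 12 of these were lower in KXH, with ratios from 0.654 for Myh11 to 1.03 for Higd1b. Their sum was 507 RPKM in KXH and 575 in water, of which Rgs5 gave 170 and 186 and Abcc9 113 and 122. The Enpep level amounted to 4.43% and 4.29% of that sum. The list mixes smooth muscle with pericyte genes, and other cells may add to its sum. The part of any cell type in the Enpep ratio was not tested. Of the 14 markers, all had a row and Cnn1 was under 1 RPKM.

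Lnpep encodes insulin-regulated aminopeptidase, which binds angiotensin IV and travels with the glucose transporter Slc2a4 in insulin-responsive vesicles. It had 4013 reads in KXH and 4492 in water, or 89.5 RPKM (86.7 to 92.3) and 93.2 RPKM (90.5 to 96.0). Its ratio of 0.960 had an interval of 0.919 to 1.00, whose unrounded upper end lies just above 1. Slc2a4 was at 211 RPKM in KXH and 207 in water (ratio 1.02, 0.989 to 1.05). Slc2a4 exceeded Lnpep per length by 2.36 times in KXH (2.27 to 2.45) and 2.22 times in water (2.14 to 2.30). Of 12 insulin-responsive vesicle genes, 10 passed 1 RPKM, none was called lower or higher, and their median log2 ratio was -0.03. Over all genes past the minimum, 8.98% were called lower and 5.32% higher.

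The receptor gene Agtr1a, the main AT1 receptor of rodent heart and vessel, was read at a low level. It had 51 reads in KXH and 69 in water, or 1.66 RPKM (1.24 to 2.18) and 2.09 RPKM (1.63 to 2.65). The ratio of 0.794 had an interval of 0.542 to 1.16, so the depth allowed anything from a 1.85-fold lower to a 1.16-fold higher level. Agtr1b, the near-identical second AT1 receptor gene of rodents, had 1 read in KXH and none in water. Reads that match both copies can be lost or split when only unique reads are counted, so the Agtr1a level is uncertain. AT1 receptors are found on fibroblasts and smooth muscle, whose markers went opposite ways here. Fibroblast markers summed to 1047 RPKM in KXH and 936 in water, with 10 of 11 higher, and their part in the Agtr1a ratio was not tested.

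Agtr2, the AT2 receptor that opposes AT1, counted as 0 reads in both libraries because it had no row. Titin (Ttn), which cardiac muscle makes in abundance, had no row either, so a missing row is not by itself a measured absence. No level is therefore given for Agtr2. Mas1, a receptor for a vasodilator angiotensin peptide, had 9 and 17 reads, at 0.320 and 0.564 RPKM, and its ratio of 0.569 had an interval of 0.223 to 1.35. Of 16 genes for other receptors of the system and their regulators, 11 passed 1 RPKM and none was called lower or higher. Over all genes past the minimum, 8.98% were called lower and 5.32% higher. The median log2 ratio of the 11 was -0.06.

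Agtrap encodes a membrane protein that binds the AT1 receptor and promotes its internalisation. It had 204 reads in KXH and 192 in water, or 6.73 RPKM (5.84 to 7.72) and 5.90 RPKM (5.09 to 6.79), the only member past 1 RPKM with a higher value in KXH. Its ratio was 1.14 with an interval of 0.932 to 1.40, and 16.9% of genes with 100 to under 1000 reads were at least as high. Per length, Agtrap stood at 4.05 times the level of Agtr1a in KXH (2.97 to 5.62) and 2.82 times in water (2.13 to 3.77). The intervals overlap, which does not settle whether the proportion differs between the libraries, and no interval was computed for that difference.

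Atp6ap2, the (pro)renin receptor, is also an accessory subunit of the vacuolar proton pump. It had 216 reads in KXH and 257 in water, or 13.1 RPKM (11.4 to 15.0) and 14.5 RPKM (12.8 to 16.4). The ratio of 0.903 had an interval of 0.75 to 1.09. A list of 17 proton pump genes left out other subunits, such as Atp6v1g2 (137 and 147 reads) and Atp6v1b1 (1 and 1). All 17 passed 1 RPKM and none was called lower or higher, beside 8.98% and 5.32% of all genes past the minimum. Of the 17, 14 were above the water level, as were 45% of all genes. The median log2 ratio of the 17 was 0.05. Atp6ap1, the other accessory subunit, was at 94.7 and 98.3 RPKM (ratio 0.963, 0.914 to 1.01), 7.21 times the level of Atp6ap2 in KXH and 6.76 times in water.

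**Figure D3:**
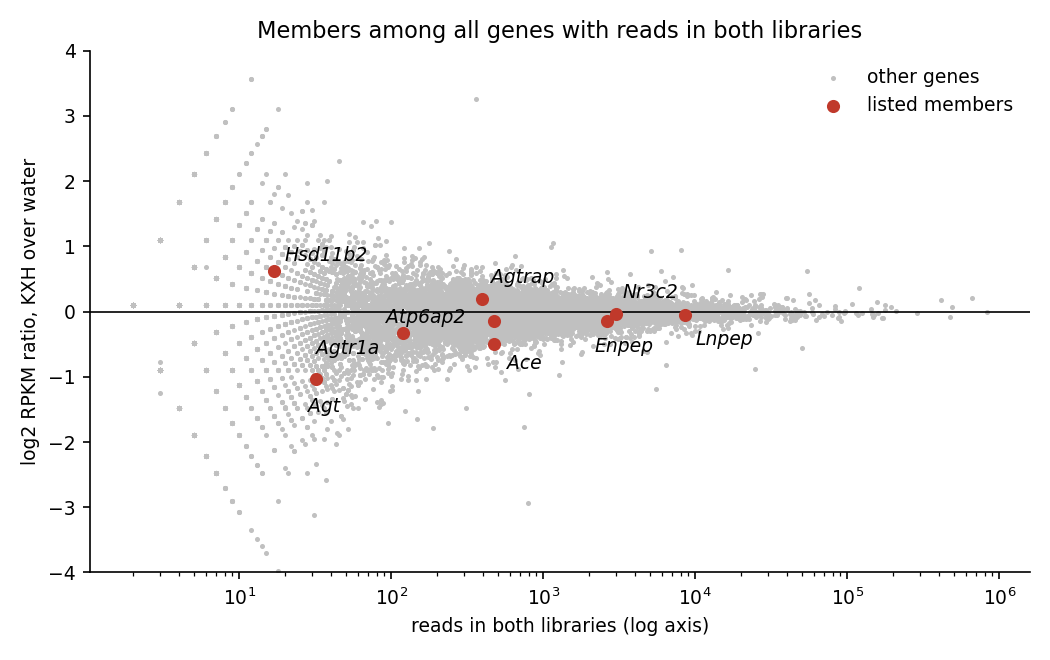
Log2 ratio of KXH over water (vertical axis) against the reads of both libraries on a log axis, for all genes with reads in both (grey) and for the 9 listed members (red). The spread of all genes narrows as reads increase, and Ace, at -0.50 with 477 reads, lies in the lower part of the cloud at its read number.

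For the mineralocorticoid arm, the receptor gene Nr3c2 was read at a moderate level in both libraries. It had 1438 reads in KXH and 1591 in water, or 17.8 RPKM (16.9 to 18.8) and 18.4 RPKM (17.5 to 19.3). The ratio of 0.971 had an interval of 0.903 to 1.04, which leaves out differences beyond 1.11-fold lower or 1.04-fold higher as far as counting error goes. Its sign was not stable: the log2 ratio was -0.04, and 0.002 once the trend of ratios with gene length was removed. The glucocorticoid receptor Nr3c1, which binds overlapping hormones, was at 38.9 and 39.6 RPKM (ratio 0.982, 0.938 to 1.03). Per length it was 2.18 times the level of Nr3c2 in KXH (2.05 to 2.32) and 2.16 times in water (2.04 to 2.29), so the proportion of the receptors was alike within counting error.

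Hsd11b2 encodes the enzyme that inactivates glucocorticoids and so reserves the mineralocorticoid receptor for aldosterone in kidney. It had 10 reads in KXH and 7 in water, or 0.382 RPKM (0.183 to 0.702) and 0.249 RPKM (0.10 to 0.513). Coverage of its length was 50.1% and 23.6%. The ratio of 1.53 had an interval of 0.527 to 4.75, and a difference in either direction was not detectable. With 1 added to each RPKM its log2 ratio of 0.62 became 0.15. Hsd11b1, which regenerates active glucocorticoid, was at 26.4 and 25.1 RPKM (ratio 1.05, 0.936 to 1.18). Hsd11b1 exceeded Hsd11b2 by 69.3 times per length in KXH (37.4 to 145) and by 101 times in water (48.7 to 252).

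Genes related to these members by pathway were mostly close to the water level. A list of 20 further genes, most of them for forming or degrading angiotensins, also held Kng1, Kng2, Klk1, Serpina1 and Tmem27. None of these passed 1 RPKM. Of the 20 genes, 12 passed, with 2 called lower and 1 higher, beside 8.98% and 5.32% of all genes past the minimum. The median log2 ratio of the 12 was -0.06. The 2 lower genes were Prcp and Anpep. Prcp, a carboxypeptidase that degrades angiotensin II, had 157 reads in KXH and 232 in water and was 1.38-fold lower (1.12 to 1.70). Anpep, aminopeptidase N, had 107 and 157 reads and was 1.37-fold lower (1.06 to 1.76). The higher gene was Cma1, described above.

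Of 26 genes of AT1 receptor signalling, all 26 passed 1 RPKM and 21 were below the water level, with a median log2 ratio of -0.11. None was called lower and 1 was called higher, Prkca, the classical protein kinase C of the myocyte, at 10.5 against 8.36 RPKM (1.26-fold, 1.11 to 1.43). Of all genes past the minimum, 55% were below the water level, 8.98% were called lower and 5.32% higher. The interval lay below 1 for 11 of the 26, beside 16.3% of all genes. More reads make narrower intervals, and of the 17 genes with 1000 reads or more the interval lay below 1 for 9, beside 21.3% of all genes so read. Itpr2, an inositol trisphosphate receptor of heart, was 1.22-fold lower (1.16 to 1.29), and Gnaq, the G protein subunit that couples AT1 to phospholipase C, had a ratio of 0.836 (0.724 to 0.966). These 2 genes are named after their values were seen. Rgs5 (ratio 0.918) is also among the smooth muscle and pericyte markers. Of markers past 1 RPKM, the interval lay below 1 for 12 of 14 endothelial and 10 of 13 smooth muscle and pericyte genes. It did so for 0 of 11 fibroblast and 3 of 9 cardiomyocyte genes. The part of cell content in the AT1 signalling ratios was not tested.

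Of 16 genes for making or handling corticosteroids, 9 passed 1 RPKM, with 1 called lower and 1 called higher. Over all genes past the minimum, 8.98% were called lower and 5.32% higher. The median log2 ratio of the 9 was -0.03. The higher gene was Hsp90aa1, a chaperone that holds steroid receptors ready for hormone, at 1.28-fold (1.12 to 1.46). The lower gene was the steroid hydroxylase Cyp21a1, with 30 and 45 reads and a ratio of 0.716 (0.436 to 1.16). The aldosterone synthase gene Cyp11b2 had no row. Of 20 target genes of the corticosteroid receptors, 17 passed and 12 were above the water level, as were 45% of all genes. The median log2 ratio of the 17 was 0.12, beside -0.02 for all genes. Medians were 0.10 for fibroblast, 0.09 for cardiomyocyte, -0.21 for endothelial and -0.20 for smooth muscle and pericyte markers. The part of cell content in the target ratios was not tested. The targets that did not pass were the sodium channel subunits Scnn1a, Scnn1b and Scnn1g. Scnn1a had 13 reads in KXH and 25 in water (ratio 0.559, 0.262 to 1.13), and Scnn1b had 6 and 15 (0.430, 0.137 to 1.17). Scnn1g had 1 and 0.

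Of the 17 targets that passed, 1 was called higher and none lower, beside 5.32% and 8.98% of all genes past the minimum. The higher target was Sgk1, a kinase induced by both corticosteroid receptors. It had 854 reads in KXH and 724 in water, or 24.0 against 19.0 RPKM, a ratio of 1.27 (1.15 to 1.40). Fkbp5, another widely used target, went the other way, at 28.3 against 35.2 RPKM (1.24-fold lower, 1.16 to 1.34), and is named after its values were seen. The interval lay above 1 for 6 of the 17 targets and below 1 for 2, beside 11.2% and 16.3% of all genes. More reads make narrower intervals, and 15 of the 17 had 1000 reads or more. Of all genes so read the interval lay below 1 for 21.3%, and the share above 1 was not computed.

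**Figure D4:**
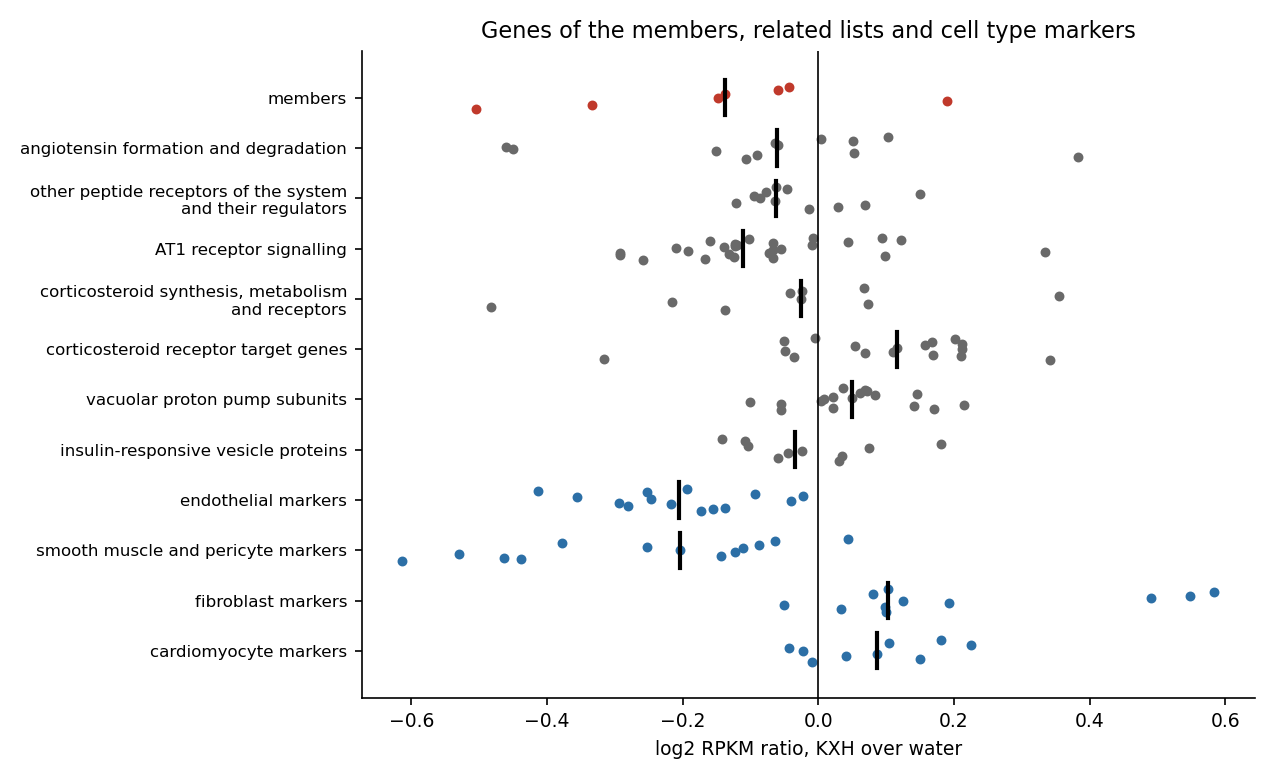
Log2 ratio of KXH over water for single genes that passed the minimum of 1 RPKM (points) and the median of each list (black bars), for the 7 members that passed (red), the related pathway lists (grey) and markers of endothelium, smooth muscle and pericytes, fibroblasts and cardiomyocytes (blue). Among the lists drawn, medians run from -0.21 for endothelial markers to 0.12 for corticosteroid receptor targets, with the members at -0.14.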

How the data were processed

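Total RNA was extracted from frozen myocardium with Trizol and made into libraries with an Illumina TruSeq kit, per the labels' protocols. The deposited protein-coding tables give whole counts of unique reads per gene, the RPKM that the authors derived from count, listed length and table total, and a percent coverage of each gene. Only genes with at least 1 read are listed. Bowtie 0.12.2 and rn6 are named, with no role, per the submitters' processing notes. Annotation, counting program and strand setting are not given in these sources, and antisense reads may therefore be included. The lncRNA tables were not used here.

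Groups were taken from the agent in the labels. Absent rows were counted as 0 reads. Ratios are RPKM ratios without a pseudocount. Their exact Clopper-Pearson 95% intervals come from each gene's share of reads in the KXH library given both totals, and levels have exact Poisson intervals. The reads carry no molecular identifiers, and both kinds of interval cover counting error only. With 1 library per group no model was fitted. The ratio and its interval were tested on simulated counts that held counting error only, as the interval assumes. With no spread between animals or libraries in them, they check the calculation alone. All 10 symbols are current in a RefSeq table of another assembly, used for names only.

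The members, gene lists and the limits for calling a gene (a ratio of at most 0.8, or 25% above water) were chosen with earlier results of these data known. Named from a related list are up to 4 genes past either limit and the minimum of 1 RPKM, those with the most reads first, and 10 genes fixed by name, of which 2 are not reported here. Alternatives were other pseudocounts, scalings, filters and thresholds, and removal of a quadratic trend on length. The tools were edgeR 4.0.16 (TMM, trimmed mean scaling), scipy 1.17.1, pandas 2.3.3, numpy 2.4.6 and matplotlib 3.10.9 under Python 3.11.15.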

Additional observations from a re-analysis of the deposited data

How the results depend on the processing

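The number of members called lower in KXH was 2. It became 1 with 1 or 0.1 added to each RPKM, with TMM scaling and with ratios centred on the median gene, since Agtr1a then fell short of the limit. It became 0 at a threshold of 1.5-fold and 0 among members with a mean of at least 5 RPKM, where Ace is left out. Without a filter on RPKM it was 3, with Agt, and the number called higher was 1, Hsd11b2, in place of 0. All 45 member log2 ratios under the 5 other scales stayed inside their counting intervals, and 1 changed sign, that of Nr3c2. They ran from -0.49 to -0.42 for Ace, from -1.04 to -0.36 for Agt and from 0.15 to 0.64 for Hsd11b2, where adding 1 RPKM shrinks low values most. The counting interval lay below 1 for 2 members, and for 2 with TMM scaling or median centring but 1 with the length trend removed, Enpep being lost; these shifts of the interval were chosen after seeing the data. The median log2 ratio of the members stayed below 0 under each alternative run, between -0.14 and -0.06. No paired analysis was possible because each group has 1 library. Depth limits Agt, Hsd11b2 and Agtr1a most, with 32, 17 and 120 reads over both libraries.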

Other observations

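Cathepsin D (Ctsd), a lysosomal protease able to release angiotensin from its precursor, was more abundant than any member. It stood at 236 RPKM in KXH and 251 in water, 1.06-fold lower (1.03 to 1.10). Per length it exceeded Lnpep, the highest member, by 2.63 times in KXH (2.53 to 2.74) and 2.69 times in water (2.59 to 2.79), and it exceeded Ace by 60.0 times in KXH (51.9 to 69.7) and by 45.0 times in water (40.0 to 50.8). Mtus1, which encodes a protein that binds the AT2 receptor, was at 317 and 344 RPKM, 1.09-fold lower in KXH (1.07 to 1.11), although Agtr2 itself had no row. Mtus1 was named after its values were seen.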
